A study of Mus musculus with 2 samples.

Results

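The 9 genes Ttn, Neb, Myom1, Myom2, Myom3, Mybpc1, Mybpc2, Mybpc3 and Mybph encode the giant filament proteins, the M-band proteins and the myosin-binding proteins of the sarcomere. They were chosen by symbol, as every probe set whose only gene symbol in the platform annotation is 1 of the 9 names. Each gene had exactly 1 such probe set, which gives 9 of the 21789 probe sets with 1 gene symbol and 9 of the 19938 genes they name. Expression was compared between 2 cultures of a single line of primary myoblasts, the dividing cells that arise from satellite cells of muscle, from Rosa-CreER / MLL1 fl/fl mice. Both cultures carry floxed alleles of Mll1 (Kmt2a), which encodes an H3K4 methyltransferase, and a Cre recombinase expressed from the ubiquitous Rosa26 locus that enters the nucleus only with 4-hydroxytamoxifen (4-OHT). The Mll1 cKO culture, labelled MLL1 KO, received 500 nM 4-OHT in ethanol for 7 days, and the control culture received ethanol alone for 7 days. By the labels both were then kept for 3 days without drug or ethanol, whereas the methods of the study state a shorter washout. Both were grown in growth medium with FGF and not in differentiation medium. Since the drug was given to 1 culture only, an effect of 4-OHT or of Cre activity cannot be told apart from that of the deletion.

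Each culture was measured on 1 Affymetrix MoGene 1.0 ST array. No spread between cultures, standard error or test could therefore be computed, and every array difference below lacks a replicate array. For some genes named below, among them Myf5, Pax7, Myod1 and Myog, the study also reports RT-qPCR from independent experiments. Values are log2 signals after RMA, the authors' background correction, quantile normalization and summary of the probes of a probe set, and each difference is Mll1 cKO minus control. A fold is 2 to the power of the size of the difference, and 2-fold is the cut-off of the study. The median log2 difference was -0.05 over the 21789 probe sets with 1 symbol, and the central 95% of them ran from -0.56 to 0.77. Kmt2a had log2 signals of 9.66 in Mll1 cKO and 9.44 in control myoblasts, but this single summary of the whole transcript checks nothing about the removed exons. Of the myoblast markers, Myod1 had log2 signals of 12.27 in Mll1 cKO and 12.15 in control myoblasts, Des, the muscle intermediate filament, of 11.49 in Mll1 cKO and 11.58 in control myoblasts, and Pax7 of 10.02 in Mll1 cKO and 10.29 in control myoblasts. Of 11 such markers 4 were higher and 7 lower, with Cav3 the highest at a log2 difference of 0.30, and only Myf5 differed by over 2-fold, at 6.14 in Mll1 cKO and 9.51 in control myoblasts.

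Titin spans the sarcomere from the Z-disc to the M-band as an elastic ruler and scaffold, and nebulin runs along the thin filament. Myomesins cross-link thick filaments and titin in the M-band at the centre of the sarcomere. Myosin-binding proteins C and H decorate the thick filament and, in the case of the C proteins, tune the access of myosin heads to actin. Apart from Mybpc3, the cardiac C-protein gene, these genes are known in skeletal muscle mainly as products of differentiation, made as myoblasts leave the cell cycle and form myotubes.

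Mybph, which encodes myosin-binding protein H of skeletal muscle, was the only 1 of the 9 genes to exceed the control by over 2-fold in Mll1 cKO myoblasts, and no gene of the group lay below it by as much. Over all probe sets with 1 symbol, 1.18% passed 2-fold upwards and 0.101% downwards. At a lower threshold of 1.5-fold, 2 of the 9 genes, Mybph and Myom2, were higher and 1, Mybpc3, was lower, where 4.85% and 2.03% of all probe sets passed in these directions. Without regard to size, 7 of the 9 genes were higher and 2 were lower, whereas 41.2% of all probe sets were higher and 56% were lower. This contrast was smaller when the values were treated otherwise. After centring, 7 of the 9 were higher, beside 50% of all probe sets. With the trend of the differences on signal removed 6 were higher, beside 50.1%, and after repeated quantile normalization 6, beside 45.8%. The median log2 difference of the 9 genes was 0.26, beside -0.05 for the 19938 named genes. Both lower genes, Mybpc2 and Mybpc3, were dim. The differences ran from -0.63 to 1.17 with an SD of 0.55 over the 9 genes. In bulk RNA, a larger share of cells that express such a gene and more RNA per cell cannot be told apart.

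**Figure D1:**
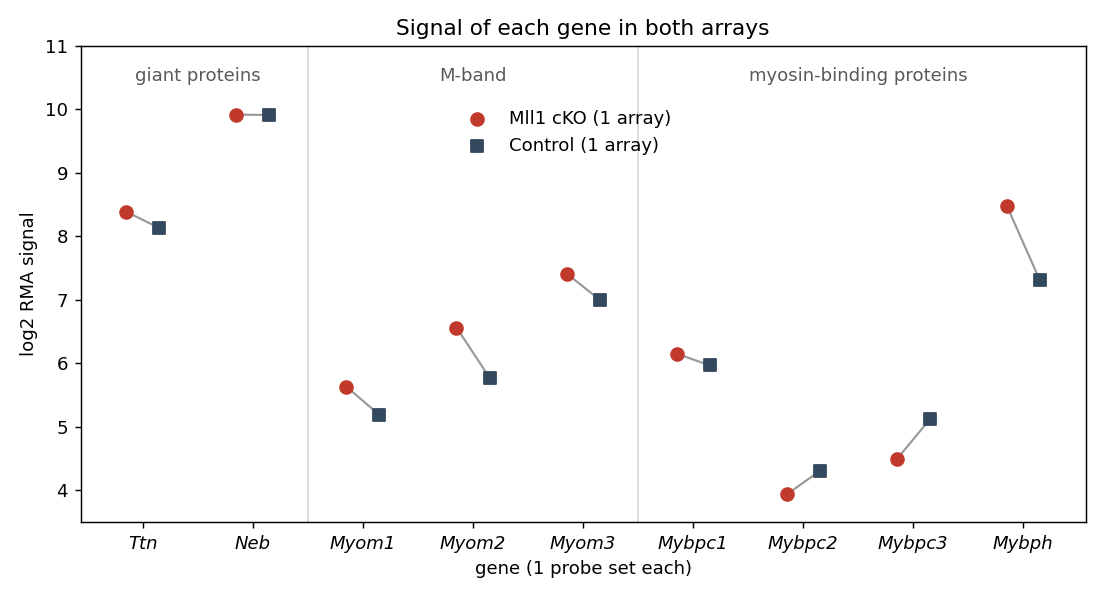
The log2 RMA signal (vertical axis) of each gene is shown for the Mll1 cKO array (circles, left) and the control array (squares, right), with 1 probe set and 1 array per point and no error bars. Mybph has the steepest step, at 8.48 in the Mll1 cKO array and 7.31 in the control array, the Neb signals of 9.92 and 9.91 lie level, and Mybpc2 and Mybpc3 step the other way.

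The giant proteins differed little between the arrays. Ttn, which encodes titin (probe set 10483871), had log2 signals of 8.39 in Mll1 cKO and 8.13 in control myoblasts. It was 1.19-fold higher, with a log2 difference of 0.26, and 16.8% of the probe sets with 1 symbol had a larger difference. In its decile of mean signal, 26.0% had a difference as high. Neb, which encodes nebulin (10482528), had log2 signals of 9.92 in the Mll1 cKO array and 9.91 in the control array, a log2 difference of 0.01. Both transcripts therefore had clear signals in myoblasts kept in growth medium, in the control culture too. The sign of the Neb difference has no weight, since it turned to -0.01 with the trend on signal removed and to -0.02 after the arrays were quantile normalized again. The RefSeq annotation holds 4 transcripts of Ttn and 29 of Neb, and 1 signal per gene does not separate isoforms.

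The 3 myomesin genes were all higher in the Mll1 cKO array. Myom2, which encodes the M-protein of fast fibres (10570518), had log2 signals of 6.57 in Mll1 cKO and 5.78 in control myoblasts and was 1.73-fold higher. Of all probe sets with 1 symbol, 2.43% had a larger difference than its 0.79. In its decile of mean signal, 4.82% had a difference as high. Myom1, which encodes myomesin 1, the M-band protein of all striated muscle (10446619), had the lower signals of 5.63 in the Mll1 cKO array and 5.19 in the control array and was 1.36-fold higher. Myom3, which encodes myomesin 3 (10509073), had signals of 7.42 in the Mll1 cKO array and 7.01 in the control array and was 1.33-fold higher. Of the probe sets in the same decile of mean signal, 13.1% had a difference as high as that of Myom1 and 20.2% as that of Myom3. None of the 3 passed 2-fold. Their log2 differences of 0.41 to 0.79 all lay inside the central 95% of all probe sets except that of Myom2, at 0.79 against an upper limit of 0.77. With the trend on signal removed, Myom1 reached a log2 difference of 0.61 and passed 1.5-fold. It did not pass 1.5-fold after centring, at 0.50, or after repeated quantile normalization, at 0.55.

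Of the 4 myosin-binding genes, Mybph and Mybpc1 were higher in the Mll1 cKO array. Mybph (10349980) had log2 signals of 8.48 in Mll1 cKO and 7.31 in control myoblasts, a log2 difference of 1.17 or 2.26-fold. It ranked 147 of 21789 from the highest difference. Among the 2179 probe sets in the same decile of mean signal, 24 had a difference as high, and 41 passed 2-fold upwards and 3 downwards. It stayed over 2-fold in each treatment of the values that was tried, with a lowest log2 difference of 1.07. Mybpc1, the slow skeletal myosin-binding protein C gene (10371627), had signals of 6.15 in the Mll1 cKO array and 5.97 in the control array and was 1.13-fold higher.

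The other C-protein genes had dim signals with negative differences, whose direction is uncertain at this level. Mybpc3, the cardiac myosin-binding protein C gene (10473814), had log2 signals of 4.49 in Mll1 cKO and 5.12 in control myoblasts and was 1.55-fold lower. It ranked 299 of 21789 from the lowest difference, and with the trend on signal removed its log2 difference of -0.63 shrank to -0.42, which no longer passes 1.5-fold. Mybpc2, the fast skeletal gene (10562784), had signals of 3.94 in the Mll1 cKO array and 4.31 in the control array and was 1.29-fold lower. Of the probe sets in the same decile of mean signal, 21.2% had a difference as low, and their median was itself negative, at -0.21. The files give no detection call, but 8 endothelial markers, genes of a cell type that the isolation depleted, had signals of 3.64 to 5.28 in the Mll1 cKO array and 3.64 to 5.65 in the control array. The signals of Mybpc2 and Mybpc3 lie in this range in both arrays, and the control signal of Myom1 does too. Of 15 cardiac markers, 5 were higher and 10 were lower in the Mll1 cKO array, with a median log2 difference of -0.10, and Nkx2-5, a homeobox gene of the heart, was the lowest at -0.59. The highest was Myl4, an atrial and embryonic myosin light chain gene that is also counted among the myosins below, with signals of 11.21 in the Mll1 cKO array and 10.37 in the control array, or 1.79-fold higher. Tnnt2, the cardiac troponin T gene, which embryonic skeletal muscle expresses too, was 1.28-fold higher. Myh6 and Nppa, which define heart muscle, had signals of 5.04 and 4.87 in the Mll1 cKO array and 4.98 and 4.89 in the control array.

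**Figure D2:**
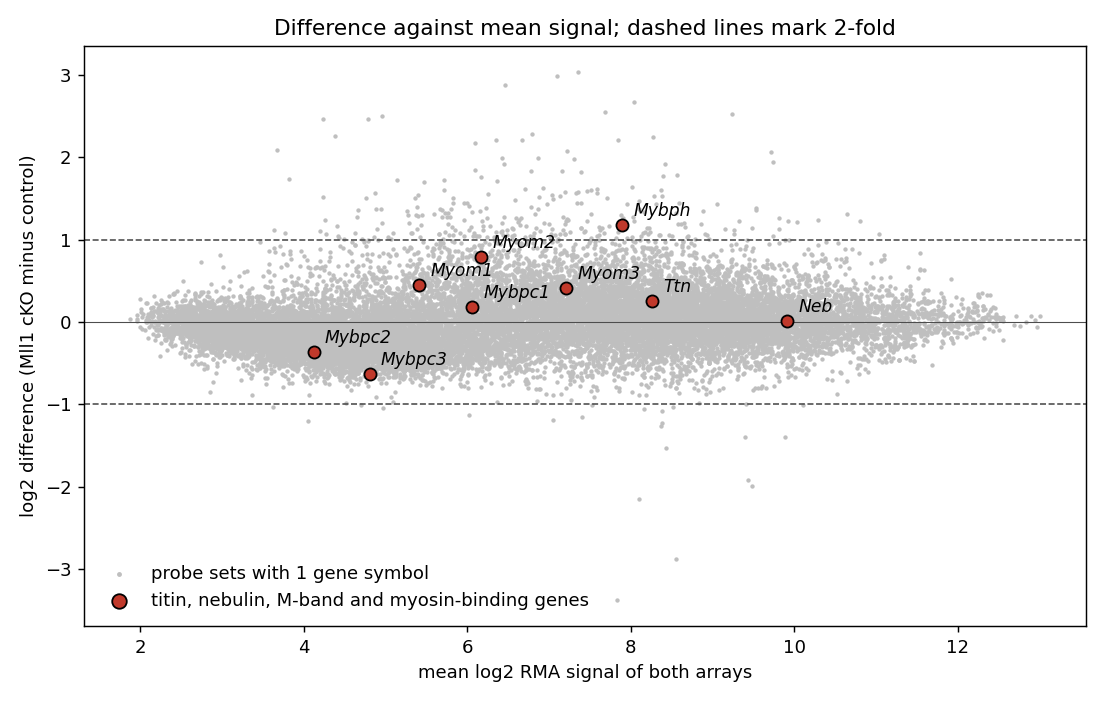
The log2 difference, Mll1 cKO minus control, of the 21789 probe sets with 1 symbol (grey) is plotted against the mean log2 RMA signal of both arrays, with the 9 genes in red and dashed lines at 2-fold. Mybph alone of the 9 lies beyond a line, at 1.17, while Mybpc3 and Mybpc2 sit among the dim probe sets at -0.63 and -0.37.

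The promoters of Mybph and Mybpc3 are shown as those of the genes at either end of the group. They are the 250 bases before the annotated start, from RefSeq on GRCm38.p6, both on the plus strand, at chr1:134193198-134193447 for Mybph and at chr2:91117894-91118143 for Mybpc3. Capitals mark matches to an E-box (CANNTG), the site of MYOD and myogenin, to M-CAT (CATTCC, the site of TEAD factors), to a MEF2 box or to a CArG box, the site of SRF, each searched on both strands.
Mybph: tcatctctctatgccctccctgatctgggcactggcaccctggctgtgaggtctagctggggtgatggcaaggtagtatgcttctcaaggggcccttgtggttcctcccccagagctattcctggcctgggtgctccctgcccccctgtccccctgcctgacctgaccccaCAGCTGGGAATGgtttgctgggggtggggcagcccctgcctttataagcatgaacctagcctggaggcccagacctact
Mybpc3: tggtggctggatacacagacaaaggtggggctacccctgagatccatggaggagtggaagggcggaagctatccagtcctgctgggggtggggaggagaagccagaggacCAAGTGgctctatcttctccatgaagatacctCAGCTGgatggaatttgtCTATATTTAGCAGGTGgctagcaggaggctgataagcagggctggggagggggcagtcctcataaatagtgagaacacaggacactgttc
Mybph holds 1 E-box, CAGCTG, from 79 to 74 bases before the start, directly followed by an M-CAT match on the opposite strand. Mybpc3 holds 3 E-boxes, of which 1 is CAGCTG, and a MEF2 box from 90 to 81 bases before the start that touches the E-box after it. Of the 9 genes, 7 had a promoter in the table, Neb and Myom2 being the others, and all 7 held an E-box, as did 66.2% of the 32851 promoters of the same length. The E-box CAGCTG, which is also counted among the E-boxes, was present in 3 of the 7 and in 13% of all promoters. A MEF2 box was present in 3 of the 7, namely Ttn, Myom3 and Mybpc3, and in 2.92% of all. M-CAT was present in 2 of the 7 and in 12.6% of all, and a CArG box in Myom1 and in 1.47% of all. A match is a description of letters and not a site of binding.

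Among partners of titin and nebulin, 3 of 32 measured genes passed 2-fold upwards in Mll1 cKO myoblasts and none passed it downwards. Of all named genes, by the mean of their probe sets, 1.16% passed it upwards and 0.11% downwards. None lower therefore says little about the partners. In all, 22 partners were higher, 9 were lower and 1 was level, where 41.6% of named genes were higher. The median of the partners' log2 differences was 0.15. Fhl1, a LIM protein that binds titin, had log2 signals of 7.81 in Mll1 cKO and 6.27 in control myoblasts and was 2.91-fold higher. Klhl41, a Kelch protein that stabilizes nebulin, was 2.25-fold higher, and Actn2, the α-actinin that anchors titin in the Z-disc, was 2.07-fold higher. The Kelch genes Klhl40 and Kbtbd13 of the same list were lower, at log2 differences of -0.28 and -0.17. Fhl1, Klhl41 and Actn2 are named for passing 2-fold and do not stand for the list. Its median, 0.15, lay between the log2 differences of Neb, 0.01, and of Ttn, 0.26. Lmod3 and Lmod2, the leiomodins that act with nebulin at the pointed ends of thin filaments, were 1.81-fold and 1.73-fold higher. Xirp1, which encodes an actin-binding Xin repeat protein, was 1.78-fold higher. Tcap, which encodes telethonin, the cap of titin in the Z-disc, had the low signals of 4.76 in the Mll1 cKO array and 5.00 in the control array, and Nebl, which encodes the nebulin relative nebulette, had the lowest difference of the list at -0.30. The titin-binding ubiquitin ligase genes differed in direction, with Trim55 1.51-fold higher and Trim63 and Trim54 1.15-fold and 1.14-fold lower.

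Of 24 genes for thick filament assembly, M-band enzymes and their regulators, 1 passed 2-fold upwards and none passed it downwards. Of all named genes, 1.16% and 0.11% did so. In all, 15 were higher and 9 lower, where 41.6% of named genes were higher. The median log2 difference of the 24 was 0.18. The 1 that passed was Cavin4, which encodes a caveolar protein of muscle rather than a part of the thick filament, at 2.07-fold. Over 1.5-fold higher were also Myoz2, which encodes a Z-disc protein that binds calcineurin, Ampd1, the AMP deaminase of muscle, and Ldb3, which encodes a PDZ-LIM protein of the Z-disc, at 1.77-fold, 1.61-fold and 1.53-fold. Myoz2 was dim, and its signals of 5.18 in the Mll1 cKO array and 4.36 in the control array lay in the range of the endothelial markers. The control signal of Ampd1, 4.82, did too. Unc45b, the myosin chaperone of striated muscle, had a log2 difference of -0.02, Smyd1, a methyltransferase that associates with myosin, of 0.20, and Hsp90aa1 of -0.21 over 3 probe sets. Ckm, the muscle creatine kinase that sits at the M-band, had signals of 5.76 in the Mll1 cKO array and 5.87 in the control array. Rbm20, a splicing factor of titin, was 1.18-fold lower, and Igfn1, which encodes an immunoglobulin-domain protein of muscle, had the lowest difference at -0.58.

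The median log2 difference was 0.39 for 16 muscle myosin chains and 0.28 for 13 troponins, tropomyosins and sarcomeric actins, beside 0.26 for the 9 genes. The size of the myosin median depended on dim genes, since with a mean signal over 6 the medians were 0.84, 0.32 and 0.33. The myosins stayed highest, and the medians of the thin filament genes and the 9 genes, close in both cases, changed places. Of the myosins, Myh1, Myl1 and Myl6b were over 2-fold higher and Myh7b, a slow-type myosin, had the lowest difference at -0.30. Of the thin filament genes, Tnni1, the slow troponin I, was over 2-fold higher and Tnni2, its fast counterpart, had the lowest difference at -0.28. Mybph, at 2.26-fold, was close in size to Myl1 at 2.34-fold and Tnni1 at 2.33-fold. In neither list was a gene lower by over 2-fold. Of all named genes, 1.16% were over 2-fold higher and only 0.11% over 2-fold lower.

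A list of genes of differentiating muscle held regulators of differentiation and fusion, such as Myog, Mef2c and Mymk, and genes of calcium handling and excitation, such as Casq2, Trdn and Ryr1. Of 17 measured, 13 were higher in the Mll1 cKO array and 4 were lower, where 41.6% of all named genes were higher. The median log2 signal of the 17 was 7.79 in the Mll1 cKO array and 7.20 in the control array. Their median log2 difference was 0.64. Of the 17, 5 passed 2-fold upwards on the mean of their probe sets, where 1.16% of all named genes did. They were Tmem182 at 3.10-fold, Mef2c at 2.71-fold, Casq2 and Mamstr at 2.28-fold and Mymk at 2.21-fold. Trdn reached 1.98-fold on the mean of 19 probe sets. Of these 19, several of them near the floor, 10 were over 2-fold higher, and the brightest, at 8.46 in the Mll1 cKO array and 6.96 in the control array, was 2.83-fold higher. Myog, which encodes myogenin, was 1.56-fold higher on these arrays. The paper describes myogenin mRNA as unchanged, citing its RT-qPCR and array values. Cdkn1c had the lowest difference of the list at -0.35. The other lower genes were Myf6 at -0.33, Jsrp1 at -0.27 and the fusion gene Mymx at -0.12. Whether differentiation of part of the culture accounts for the differences of Mybph and the myomesins was not tested. Fibroblast markers were higher in 1 of 12 and lower in 11, with a median of -0.21 and differences from -0.55 for Dpt to 0.34 for Dcn. Of 8 endothelial markers 7 were lower and Emcn was level, with a median of -0.25 and Cldn5 the lowest at -0.41. Immune markers were lower in 7 of 8, with a median of -0.24 and Cd3e the lowest at -0.48. Most of these markers were dim, and dim probe sets of any kind had negative medians, at -0.21 and -0.23 in the deciles of mean signal that hold Mybpc2 and Mybpc3, so nothing is read from these medians. With the trend on signal removed they were -0.15, -0.08 and -0.06 for fibroblast, endothelial and immune markers. Of 9 smooth muscle markers 4 were higher and 5 lower, between -0.40 for Cnn1 and 0.42 for Tagln. Among the immune markers, Cd68, a lysosomal protein of macrophages that other cells express too, was 2.62-fold higher. Ptprc and Itgam, which define immune cells, had signals of 3.69 and 3.98 in the Mll1 cKO array and 3.83 and 4.04 in the control array. The 9 reference genes lay between -0.18 for Sdha and 0.17 for B2m.

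**Figure D3:**
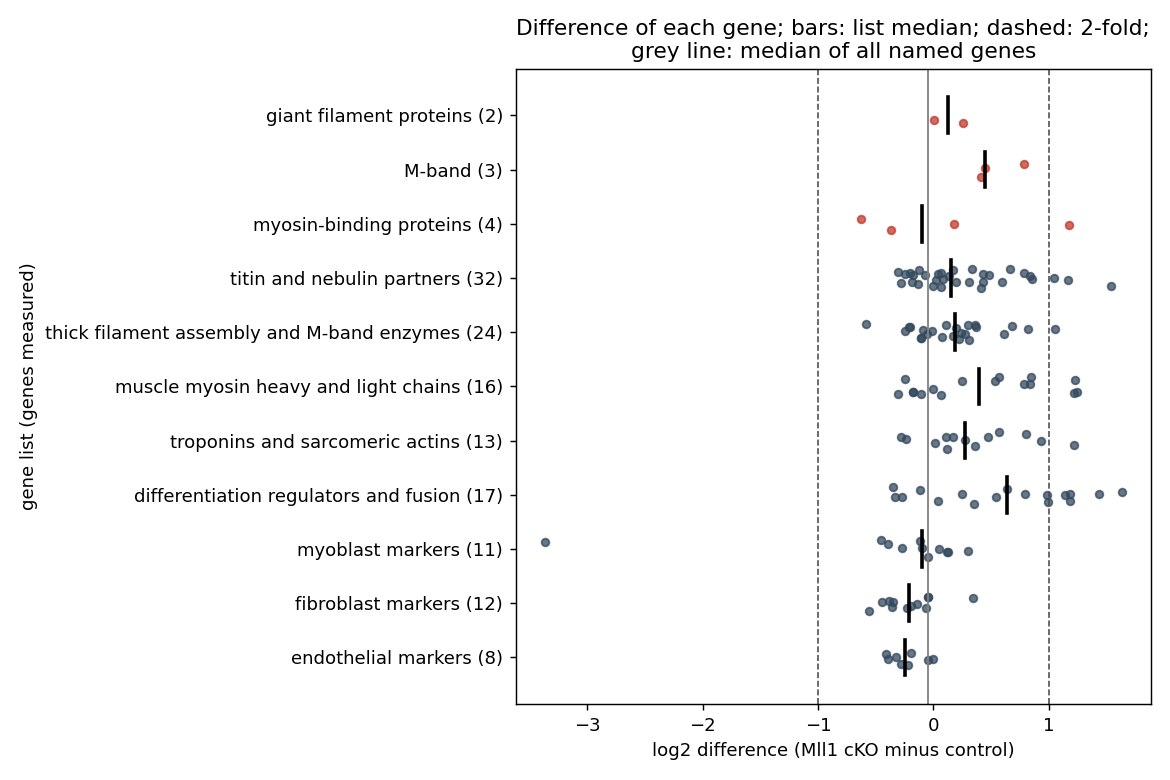
Each point is the log2 difference, Mll1 cKO minus control, of 1 gene (the mean of its probe sets), by list, with the 3 classes of the 9 genes in red, black bars at the list medians, a grey line at the median of all named genes (-0.05) and dashed lines at 2-fold. The M-band genes lie to the right at 0.41 to 0.79, and the 4 myosin-binding genes spread from -0.63 to 1.17, the lower 2 of them dim.

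Mybph kept the highest difference and Mybpc3 the lowest in the deposited values, with the trend on signal removed and after repeated quantile normalization. Centring shifts every difference equally, so it could not change their order. All 4 treatments use the same 2 arrays and so cannot check the direction of dim genes. The 3 myomesin genes, Ttn and Mybpc1 were higher, and Mybpc2 lower, under each of these 4 treatments. Myom1 ranged from 0.44 to 0.61, Myom2 from 0.75 to 0.84, Myom3 from 0.27 to 0.46 and Ttn from 0.17 to 0.31 on the log2 scale.

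**Figure D4:**
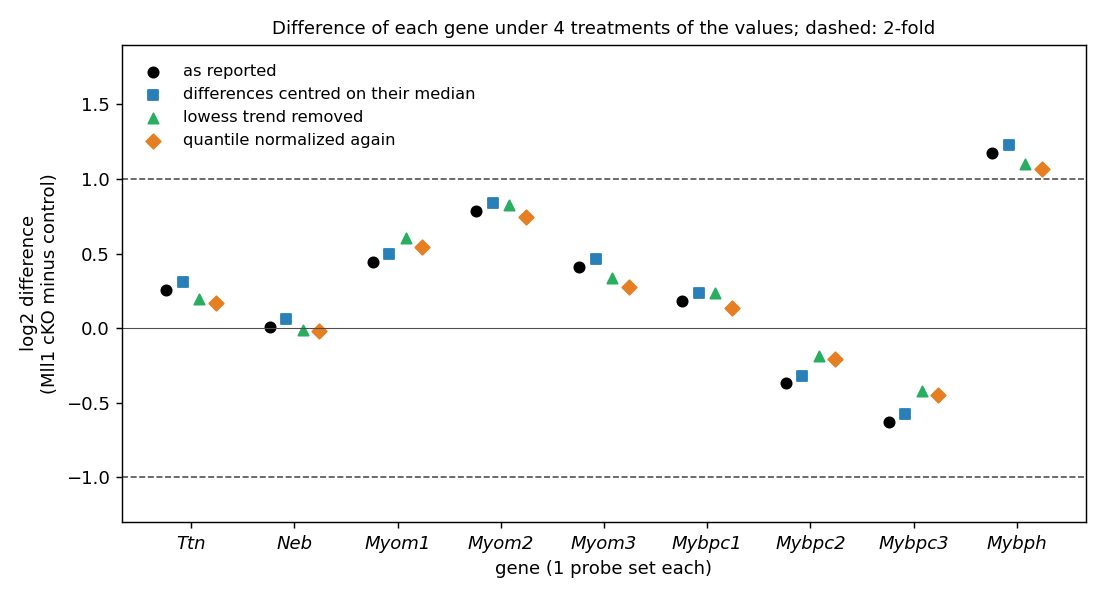
The log2 difference, Mll1 cKO minus control, of each gene is drawn for the deposited values (circles), differences centred on their median (squares), differences with a lowess trend on signal removed (triangles) and values quantile normalized again (diamonds), with dashed lines at 2-fold. Mybph stays above the upper line, between 1.07 and 1.23, and Neb straddles 0.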

How the data were processed

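RNA of 1 control and 1 Mll1 cKO culture was hybridised to Affymetrix MoGene 1.0 ST arrays. The authors applied RMA through Bioconductor and deposited log2 signals for 35557 probe sets. No version of the software is stated in the sources used here. Names came from the annotation of the array platform, under which 21789 probe sets have 1 symbol, 1621 have several and 12147 are unnamed here. Only those with 1 symbol were used. Differences are Mll1 cKO minus control on the log2 scale, and where a list holds a gene with several probe sets their mean was taken. Precision is limited by the number of arrays, 1 per condition, which allows no test.

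The 9 genes and all lists were chosen with earlier results of these data known. Named genes are the 9, from each list those over 2-fold and those at its ends, the defining markers, Kmt2a and, chosen after their values were seen, other list members named for their role. Alternatives were thresholds at 1.5-fold and at 3-fold, a log2 signal over 7 in the higher array or a mean over 6, centring, removal of a lowess trend (span 0.3), renewed quantile normalization, other rules for genes with several probe sets, all probe sets as background, and the mean in place of the median. The steps were tested on simulated data. Promoters came from RefSeq (GRCm38.p6). Python 3.11.15, numpy 2.4.6, pandas 2.3.3, statsmodels 0.14.6 and matplotlib 3.10.9 were used.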

Additional observations from a re-analysis of the deposited data

How the results depend on the processing

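The medians of the 9 genes and of the partner, thick filament, myosin and thin filament lists kept their sign under the alternatives run. Of the 9 genes only Neb changed sign, at -0.0112 with the trend on signal removed and -0.0162 after quantile normalization. At 1.5-fold, 2 of the 9 genes were higher and 1 was lower. Of the lists, 8 partners of titin and nebulin, 6 myosin chains and 3 troponins and actins were higher. In the list for thick filament assembly and M-band enzymes 4 were higher, among them the caveolar gene Cavin4 and the Z-disc genes Myoz2 and Ldb3. The background was 4.85% higher and 2.03% lower. At 3-fold none of these genes passed (0 in each list), beside 0.207% and 0.0229%. With a log2 signal over 7 in the higher array, 4 of the 9 genes were left, all 4 higher and 0 lower without regard to size. The median of the myosin chains was then 1.04, and 0.177% of all probe sets left were over 2-fold lower. The share of probe sets lower without regard to size was not computed under the signal filters. With a mean signal over 6, again 0 of the 9 were lower without regard to size, and their median was 0.33 under both filters. The medians of the partners and of the myosin chains were 0.32 and 0.84, and 0.158% of all probe sets left were over 2-fold lower. After quantile normalization 0 genes of the list for thick filament assembly and M-band enzymes passed 2-fold, since Cavin4 no longer did. The mean of the partners was 0.28. Medians of the classes of the 9 genes and of the marker lists were recomputed after seeing the data, with centring, trend removal and quantile normalization. That of the 4 myosin-binding genes, -0.0936, turned to 0.0244 with the trend removed, and that of the reference genes, -0.0021, to 0.0499 after centring. Over all 35557 probe sets, 2.62% were over 2-fold higher and 0.219% lower. Leaving out Ttn was not run, since it has no more probe sets than the others. No left-out replicate or paired analysis was possible because each condition has 1 array, and dim probe sets such as Mybpc2 and Mybpc3 have no detection call.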
